A study of Arabidopsis thaliana with 12 samples.

Results

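The 45 nucleolar ribosome biogenesis genes described here were a fixed list of Arabidopsis thaliana loci: nucleolins, proteins of the box C/D and box H/ACA snoRNA particles, processing factors of the small ribosomal subunit, the PeBoW complex and other assembly factors of the large subunit, RNA helicases, an exoribonuclease, and GTPases and export factors. All 45 loci of the list were present among the 19522 genes of the deposited table, and the rule used no measured value. The members, and the other lists and promoter motifs used below, were nevertheless chosen with earlier results of these data known. No member was removed by a filter. Product names were taken from the RefSeq annotation of TAIR10.1, symbols from there or from common use, and the other members are given by locus code.

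Seedlings 4 days old, grown in liquid medium without glucose, were kept for 2 h with or without 15 mM glucose, and 12 libraries of mRNA from whole seedlings were sequenced in 4 groups of 3. The groups were ein2-5 with glucose (ein2-5 +Glc), ein2-5 without glucose (ein2-5 −Glc), Col-0 with glucose (Col-0 +Glc) and Col-0 without glucose (Col-0 −Glc). Col-0 is the wild type, and ein2-5 is a mutant allele in the Col-0 background of EIN2, a membrane protein required for ethylene signalling. The groups were read from the titles, which carry +Glc or −Glc, since glucose stands in the treatment entry of all 12 samples.

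Between 11470134 and 17461274 reads stood behind a library. EIN2 itself averaged 49.3 ± 0.934 CPM in ein2-5 +Glc and 53.5 ± 8.90 CPM in ein2-5 −Glc, against 112.9 ± 7 CPM in Col-0 +Glc and 129.1 ± 6.91 CPM in Col-0 −Glc (SD, n = 3 each), so the genotype labels and the EIN2 level went together in all 12 libraries. CPM are the reads of a gene scaled to the same total in each library. Libraries differed in transcripts of seed storage proteins: the 10 seed genes of the marker list summed to between 140 and 3352 CPM in ein2-5 +Glc, 758 and 1310 CPM in ein2-5 −Glc, 1.25 and 3.11 CPM in Col-0 +Glc, and 1.15 and 154 CPM in Col-0 −Glc. The libraries ein2-5 +Glc 2, ein2-5 +Glc 3, ein2-5 −Glc 3 and Col-0 −Glc 1 stood above the others of their group in this sum. All ein2-5 −Glc libraries, at 758 CPM or more, stood above Col-0 −Glc 1 at 154 CPM. Because the tissue was the whole seedling, fewer cells of a kind and less RNA per cell cannot be told apart in any value below. Whether libraries of the same group stem from separate cultures is not given in the labels. The p-values therefore measure only how these libraries vary, and part of that variation may be technical.

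Ribosomes are built mainly in the nucleolus, where RNA polymerase I transcribes the long precursor of the ribosomal RNAs. Box C/D particles, with fibrillarin as the methyltransferase, and box H/ACA particles, with a pseudouridine synthase, modify the precursor, and the small-subunit processome and the large-subunit assembly factors fold it, cut it and load it with ribosomal proteins. Helicases, exonucleases and GTPases then complete the particles, which are exported to the cytoplasm. In plants these genes are most active in growing and dividing tissue, and many of their promoters carry telo-boxes and site II elements.

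The promoters were read first, because the members share sequence features that the list did not use. In the RefSeq promoter windows of TAIR10.1, from 250 bases before to 50 bases after the annotated gene start, a telo-box was taken as AAACCCTA or its reverse complement TAGGGTTT, and a site II element as TGGGCC or TGGGCT, or their reverse complements GGCCCA and AGCCCA. Both strands were searched. Matches may overlap one another. A telo-box was found in 22 of 45 members (48.9%), against 5.47% of the 18920 promoters of genes in the table. A site II element was found in 32 members (71.1%), against 25.6% of all promoters. Both stood in 16 members (35.6%, against 2.38%), and neither in 7 members (15.6%, against 71.3%).

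Below are 9 stretches of 160 bases, from 130 bases before to 30 bases after the gene start, read 5′ to 3′ on the strand of the gene, with telo-box and site II matches in capitals. They are shown as examples of genes with both motifs, with 1 of them and with none. The first set holds members with a telo-box near the start and site II elements before it: NOP56 (chr1:20986923-20987082, minus strand), NAP57 (chr3:21156046-21156205, minus strand), SWA1 (chr2:19638649-19638808, minus strand), RRP5 (chr3:3806714-3806873, minus strand) and AT3G15460 (chr3:5216232-5216391, minus strand).
NOP56: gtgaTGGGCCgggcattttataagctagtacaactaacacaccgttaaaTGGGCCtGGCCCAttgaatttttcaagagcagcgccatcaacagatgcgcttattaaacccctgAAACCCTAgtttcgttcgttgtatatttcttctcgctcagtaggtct
NAP57: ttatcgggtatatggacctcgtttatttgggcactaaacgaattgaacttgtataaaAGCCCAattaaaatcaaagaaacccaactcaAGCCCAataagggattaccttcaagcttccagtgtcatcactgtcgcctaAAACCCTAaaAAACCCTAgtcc
SWA1: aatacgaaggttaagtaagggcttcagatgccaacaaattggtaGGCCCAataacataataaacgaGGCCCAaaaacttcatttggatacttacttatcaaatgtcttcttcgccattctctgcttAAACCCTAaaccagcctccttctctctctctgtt
RRP5: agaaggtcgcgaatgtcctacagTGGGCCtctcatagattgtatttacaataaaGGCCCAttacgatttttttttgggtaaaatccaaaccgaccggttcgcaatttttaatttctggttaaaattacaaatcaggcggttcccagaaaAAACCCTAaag
AT3G15460: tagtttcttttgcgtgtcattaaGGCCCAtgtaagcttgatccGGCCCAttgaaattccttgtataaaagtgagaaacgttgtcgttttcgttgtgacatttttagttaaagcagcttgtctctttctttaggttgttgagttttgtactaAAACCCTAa

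The second set holds a member with a telo-box alone, NSN1 (chr3:2232332-2232491, minus strand), the member with the largest rise with glucose in Col-0, which had site II elements alone, OLI2 (chr5:22649488-22649647, minus strand), a member with a large rise and neither motif, PUM24 (chr3:5727635-5727794, minus strand), and a member with a small rise and both motifs, NUG2 (chr1:19737275-19737434, plus strand).
NSN1: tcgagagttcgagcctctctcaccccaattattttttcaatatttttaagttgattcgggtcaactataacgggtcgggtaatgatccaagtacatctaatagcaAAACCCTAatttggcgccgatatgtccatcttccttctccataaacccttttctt
OLI2: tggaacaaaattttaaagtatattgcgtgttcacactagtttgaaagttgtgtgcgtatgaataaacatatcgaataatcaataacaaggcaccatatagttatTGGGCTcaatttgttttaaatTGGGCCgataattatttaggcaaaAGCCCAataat
PUM24: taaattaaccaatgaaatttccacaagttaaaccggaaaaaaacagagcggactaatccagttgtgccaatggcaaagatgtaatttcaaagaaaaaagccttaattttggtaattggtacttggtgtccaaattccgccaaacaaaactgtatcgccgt
NUG2: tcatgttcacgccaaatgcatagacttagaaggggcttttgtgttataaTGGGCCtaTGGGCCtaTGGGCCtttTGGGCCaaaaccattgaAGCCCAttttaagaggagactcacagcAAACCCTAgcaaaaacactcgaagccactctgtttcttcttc

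Of the 26 telo-box matches in member promoters, 24 started within 50 bases of the gene start (92.3%), against 587 of 1103 matches over all 18920 promoters (53.2%). Of the 74 site II matches in member promoters, 64 started before the gene start (86.5%, against 89.0% of the 9858 matches over all promoters), and 53 between 130 and 20 bases before it (71.6%, against 61.0%). The share of site II matches before the start was thus close to that over all promoters. Counting only the 250 bases before the start left 8 members with a telo-box (17.8%, against 3.50% of all promoters) and 28 with a site II element (62.2%, against 22.5%). A match is a description of these letters, and no binding was measured.

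**Figure D1:**
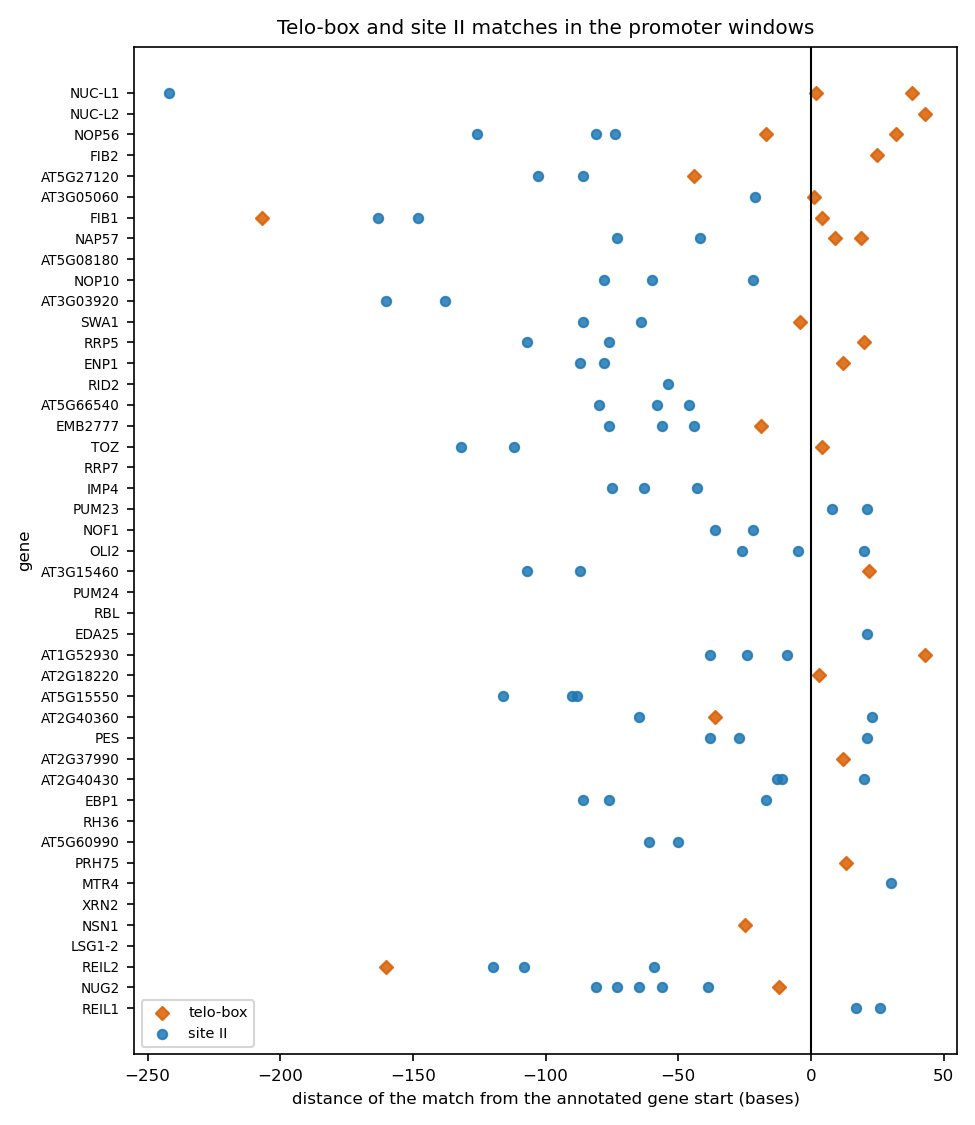
Position of each telo-box (diamond) and site II match (circle) in the promoter window of the 45 members, in bases from the annotated gene start (vertical line). Of the telo-box matches, 24 of 26 lie within 50 bases of the start, and 64 of 74 site II matches lie before it, a share close to that over all promoters; 7 members have no match.

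Glucose raised nearly the whole list in Col-0. The summed level of the 45 genes was 5831, 5272 and 5179 CPM in the 3 Col-0 +Glc libraries, against 1997, 1772 and 1847 CPM in the Col-0 −Glc libraries, with no overlap. In the fit across all genes with limma on log2(CPM + 1), with Benjamini-Hochberg adjustment across the 19522 genes and a threshold of 0.05, 44 of 45 members rose with glucose in Col-0 and 0 fell, against 40.6% and 19.7% of all genes. By at least 1 on the log2 scale, 39 members rose and 0 fell, against 12.1% and 6.04% of all genes. The median log2 fold change of the members was 1.63 (3.09-fold on the scale of CPM + 1), with a range of 0.11 (REIL1) to 2.79 (OLI2), beside a median of 0.19 over all genes. Relative to that shift the members' median was 1.44. In 44 members every Col-0 +Glc library lay above every Col-0 −Glc library, which was so for 45.9% of all genes.

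The mutant responded in the same direction by a smaller amount. Summed levels were 4763, 5355 and 4988 CPM in ein2-5 +Glc, against 2692, 2843 and 3422 CPM in ein2-5 −Glc. In ein2-5, 42 of 45 members rose with glucose and 0 fell, against 26.5% and 16.4% of all genes. By at least 1 on the log2 scale, 9 members rose and 0 fell, against 2.8% and 3.07% of all genes. The +Glc libraries lay above all −Glc libraries in 43 members and below them in 1, against 30.1% and 18.0% of all genes. On the log2(CPM + 1) scale the median was 0.77 (1.71-fold), with a range of −0.23 (REIL1) to 1.35 (FIB2), beside 0.09 over all genes. NUG2, PRH75 and REIL1 did not pass. Among the 44 members that rose in Col-0, the log2 response in ein2-5 had a median of 48.2% of that in Col-0, from 33.3% (REIL2) to 60.9% (MTR4).

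Whether the response differed between the genotypes was tested in the same fit, as the response in ein2-5 minus that in Col-0. This difference was below 0 for all 45 members, under each alternative that fitted them. By the test 38 had a smaller response in ein2-5 and 0 a larger one, against 13.3% and 5.49% of all genes. By at least 1 on the log2 scale it was 13 smaller and 0 larger, against 3.41% and 1.69% of all genes. The median difference was −0.85 on the log2 scale, from −1.59 (OLI2) to −0.22 (MTR4), beside −0.11 over all genes. The 7 members that did not pass were NUC-L2, AT3G03920, PRH75, MTR4, XRN2, NUG2 and REIL1.

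**Figure D2:**
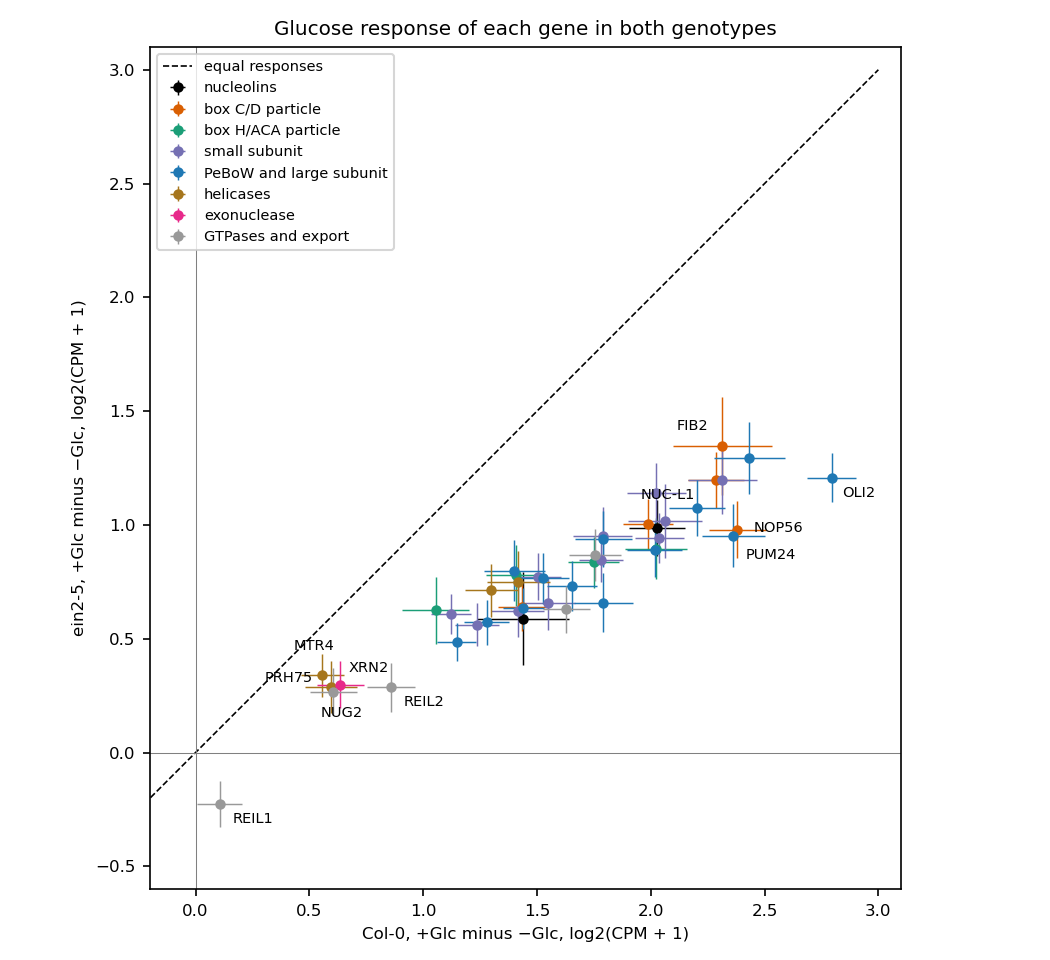
Log2 fold change with glucose of each of the 45 members in Col-0 (horizontal) and ein2-5 (vertical), on the log2(CPM + 1) scale, coloured by role, with error bars of 1 standard error of the fit. The members lie below the dashed line of equal responses, from REIL1 at 0.11 and −0.23 to OLI2 at 2.79 and 1.21.

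Without glucose most members stood higher in ein2-5 than in Col-0. By the test 41 of 45 were higher and 0 were lower, against 35.3% and 16.0% of all genes. By at least 1 on the log2 scale, 8 were higher and 0 lower, against 7.76% and 2.62% of all genes. This comparison and the glucose response in Col-0 share the Col-0 −Glc libraries and are not independent. On the log2(CPM + 1) scale the median was 0.70 (1.62-fold), from −0.05 (XRN2) to 1.69 (FIB2), beside 0.15 over all genes. For 38 members the 3 ein2-5 −Glc libraries lay above every Col-0 −Glc library and below every +Glc library of either genotype, an arrangement found in 9.59% of all genes. MTR4, NUG2, REIL1 and XRN2 did not pass, with log2 differences of 0.09 (95% interval −0.11 to 0.29), 0.09 (−0.14 to 0.31), 0.11 (−0.11 to 0.33) and −0.05 (−0.27 to 0.17). With TMM scaling the values of MTR4, NUG2 and REIL1 were −0.08, −0.08 and −0.06.

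With glucose the genotypes were close. There, 3 members were higher in ein2-5 and 9 were lower, against 26.1% and 20.9% of all genes. By at least 1 on the log2 scale 0 were higher and 0 lower, against 5.97% and 3.34% of all genes. The ein2-5 libraries lay above all Col-0 libraries in 3 members and below them in 15, against 29.7% and 25.0% of all genes. The median of the 45 was −0.13 beside 0.02 over all genes. The 3 higher ones were FIB2 (0.72 ± 0.216 on the log2 scale, SE, adjusted p = 0.0155, limma), AT3G15460 (0.46 ± 0.157, adjusted p = 0.0274) and NOP10 (0.40 ± 0.133, adjusted p = 0.0255). These 3 calls rested on single libraries: without Col-0 +Glc 1, 2 or 3 in turn FIB2 alone passed, and without ein2-5 +Glc 2 or ein2-5 +Glc 3 it was 0 members. Without ein2-5 +Glc 2, ein2-5 +Glc 3 and Col-0 −Glc 1, the values were 0.29 for FIB2, 0.44 for AT3G15460 and 0.21 for NOP10. In that fit ein2-5 +Glc keeps 1 library, which is assumed to vary like the other groups. Calls lost there therefore say nothing of the seed transcripts. The 9 lower ones were PUM24 (−0.55), OLI2 (−0.52), EDA25 (−0.43), PUM23 (−0.39), XRN2 (−0.38), LSG1-2 (−0.37), REIL2 (−0.30), ENP1 (−0.30) and EMB2777 (−0.30).

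The order of the group means, from low to high, was Col-0 −Glc, ein2-5 −Glc, ein2-5 +Glc, Col-0 +Glc in 33 members, and Col-0 −Glc, ein2-5 −Glc, Col-0 +Glc, ein2-5 +Glc in 10. XRN2 had ein2-5 −Glc at the bottom and REIL1 had ein2-5 +Glc at the bottom. How often each order of means occurs over all genes was not counted. The +Glc groups were not told apart by the test for 33 of 45 members, nor the −Glc groups for 4. Over all genes, ein2-5 was called higher in 26.1% and lower in 20.9% with glucose, and in 35.3% and 16.0% without. Across the 45 members the responses in the 2 genotypes had a Pearson r of 0.942 and a Spearman rho of 0.929, beside 0.831 and 0.785 across all genes; members are not independent replicates and share all 12 libraries, so this is a description.

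**Figure D3:**
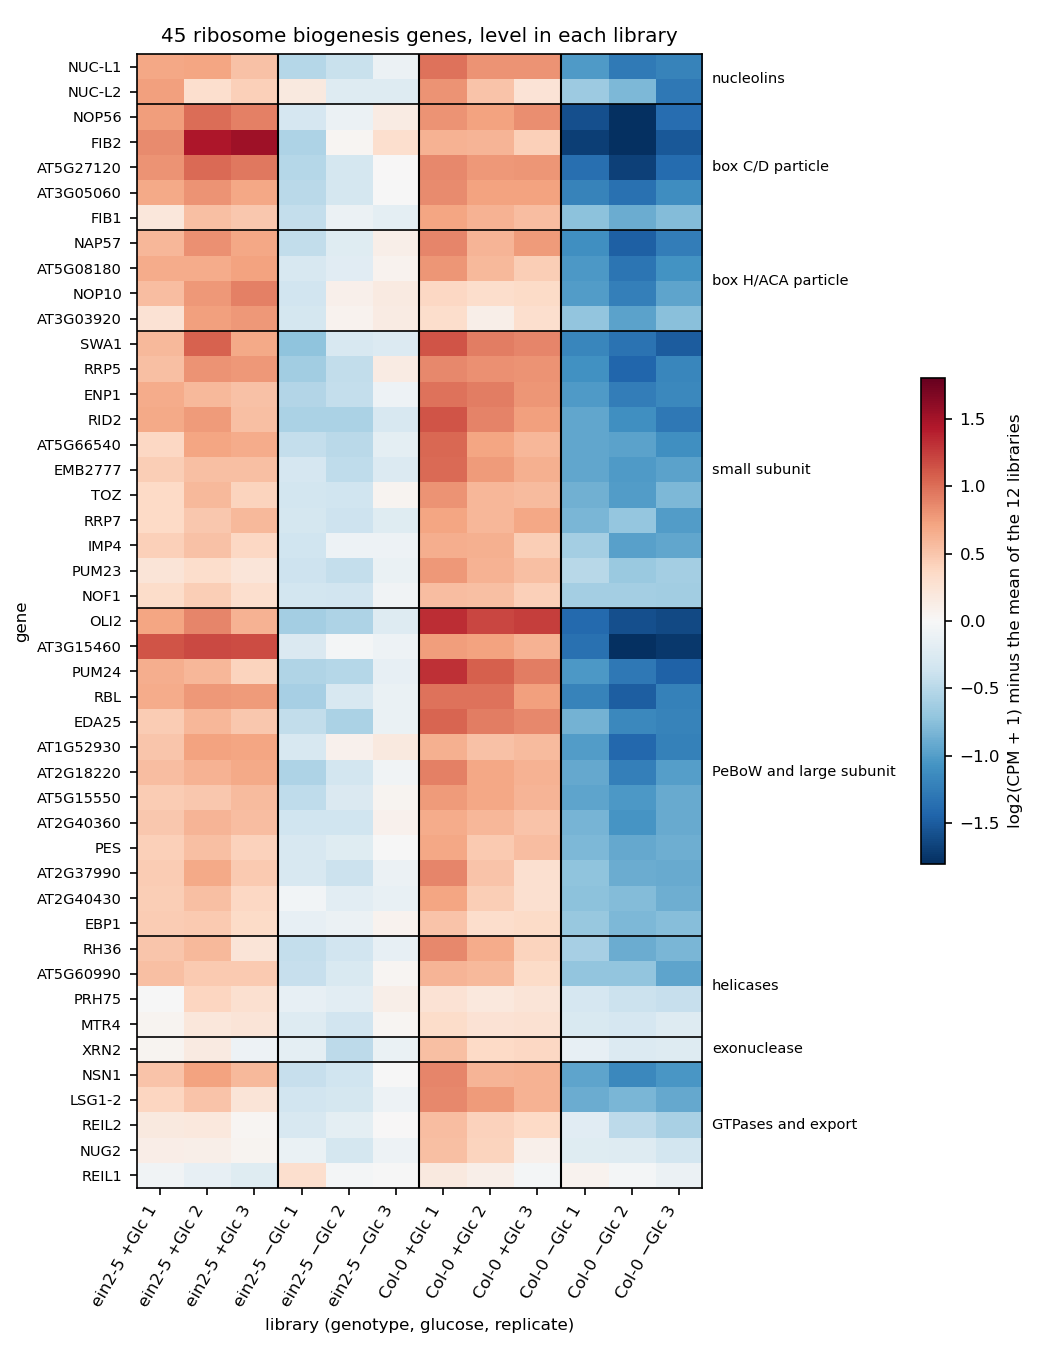
Level of each of the 45 members in the 12 libraries, as log2(CPM + 1) minus the gene's mean over the libraries, with rows ordered by role and by the response in Col-0. Col-0 +Glc is red and Col-0 −Glc blue in the 44 genes that rose in Col-0; REIL1, at the bottom, has no such pattern.

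The nucleolins, RNA-binding proteins that act on ribosomal RNA gene chromatin and on the precursor RNA, were led by NUC-L1 (chr1:18098081-18101732, plus strand, TAIR10.1). NUC-L1 had 956, 972 and 852 CPM in ein2-5 +Glc, 413, 447 and 548 CPM in ein2-5 −Glc, 1166, 1034 and 1039 CPM in Col-0 +Glc, and 292, 244 and 257 CPM in Col-0 −Glc. None of the 4 groups overlapped another, with Col-0 +Glc highest and Col-0 −Glc lowest. The log2 fold change with glucose was 0.99 ± 0.123 in ein2-5 (SE, adjusted p = 5.05e-05, limma) and 2.03 ± 0.123 in Col-0 (adjusted p = 2.05e-08), and the difference between the responses was −1.04 ± 0.174 (adjusted p = 0.00149). Per kilobase of coding sequence NUC-L1 was the most abundant member, at 553 CPM per kb in ein2-5 +Glc, 280.4 in ein2-5 −Glc and 645 in Col-0 +Glc. In Col-0 −Glc it stood at 158 CPM per kb beside 163 for the helicase PRH75. NUC-L1 took between 13.8% and 20.1% of the summed level of the 45 genes in a library.

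NUC-L2, the other nucleolin gene, was the lowest member per kilobase of coding sequence. It had 4.23, 2.88 and 3.23 CPM in ein2-5 +Glc, 2.54, 1.67 and 1.67 CPM in ein2-5 −Glc, 4.52, 3.47 and 2.74 CPM in Col-0 +Glc, and 1, 0.802 and 0.286 CPM in Col-0 −Glc. The +Glc groups overlapped each other and lay above the −Glc libraries of their own genotype. NUC-L2 rose by 0.59 ± 0.203 in ein2-5 (adjusted p = 0.0322, limma) and by 1.44 ± 0.203 in Col-0 (adjusted p = 3.89e-05) on the log2(CPM + 1) scale. The call in ein2-5 was lost with edgeR on the recovered reads (0.76, adjusted p = 0.0596), with a pseudocount of 0.1, and without ein2-5 −Glc 2, ein2-5 −Glc 3, ein2-5 +Glc 1 or ein2-5 +Glc 3 in turn. For so low a gene the added 1 shrinks the fold change. The difference of the responses missed the threshold at −0.85 ± 0.287 (adjusted p = 0.0553). The coding sequences of the 2 nucleolins were 71.84% identical.

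The 5 proteins of the box C/D particle had the largest median response of any role with more than 1 gene. It was 1.00 in ein2-5 and 2.29 in Col-0 on the log2 scale. All 5 rose in both genotypes, against 26.5% of all genes in ein2-5 and 40.6% in Col-0. These particles guide the methylation of ribosomal RNA. Their summed level was 687, 862 and 836 CPM in ein2-5 +Glc, 333, 411 and 462 CPM in ein2-5 −Glc, 767, 726 and 716 CPM in Col-0 +Glc, and 197, 169.6 and 204 CPM in Col-0 −Glc. The +Glc groups overlapped, and the −Glc groups did not. All 5 had a smaller response in ein2-5, against 13.3% of all genes. Without glucose all 5 were higher in ein2-5, against 35.3%, and 3 of them by at least 1 on the log2 scale, against 7.76%.

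The fibrillarins FIB1 and FIB2, the methyltransferase of the particle, differed from each other. FIB2 had 129.7, 198 and 208 CPM in ein2-5 +Glc, 48.4, 73.5 and 89.0 CPM in ein2-5 −Glc, 111, 109.7 and 97.0 CPM in Col-0 +Glc, and 21.4, 16.4 and 24.3 CPM in Col-0 −Glc. It was the only member of this class with all ein2-5 +Glc libraries above all Col-0 +Glc libraries. FIB1 had 180.0, 227 and 219.6 CPM in ein2-5 +Glc, 116, 145 and 139 CPM in ein2-5 −Glc, 256, 242 and 230.1 CPM in Col-0 +Glc, and 93.5, 83.4 and 90.5 CPM in Col-0 −Glc. Here all ein2-5 +Glc libraries lay below all Col-0 +Glc libraries, and the difference did not pass the test (−0.22 ± 0.107, adjusted p = 0.108, limma).

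FIB2 rose by 1.35 ± 0.216 in ein2-5 (adjusted p = 0.000331, limma) and by 2.32 ± 0.216 in Col-0 (adjusted p = 9.19e-07) on the log2 scale. FIB1 rose by 0.64 ± 0.107 in ein2-5 (adjusted p = 0.000435) and by 1.43 ± 0.107 in Col-0 (adjusted p = 1.20e-07). Without glucose FIB2 was higher in ein2-5 by 1.69 ± 0.216 (adjusted p = 3.77e-05) and FIB1 by 0.57 ± 0.107 (adjusted p = 0.000688). The ratio of FIB2 to FIB1 in CPM averaged 0.846 ± 0.115 in ein2-5 +Glc, 0.521 ± 0.114 in ein2-5 −Glc, 0.437 ± 0.0161 in Col-0 +Glc and 0.232 ± 0.0358 in Col-0 −Glc (SD, n = 3 each). The ratios of ein2-5 and Col-0 did not overlap in either condition, nor did those of +Glc and −Glc in either genotype. In each of these 4 comparisons of the log2 ratio the exact two-sided permutation test gave p = 0.1, the smallest value that 3 libraries against 3 allow. The coding sequences were 84.8% identical with no identical run longer than 44 bases, and how reads that fit both genes were counted is not given in the sources used here. In ein2-5 +Glc, FIB2 was higher in libraries 2 and 3 than in library 1, and libraries 2 and 3 also held more seed transcripts; the part of those in the FIB2 level was not tested.

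**Figure D4:**
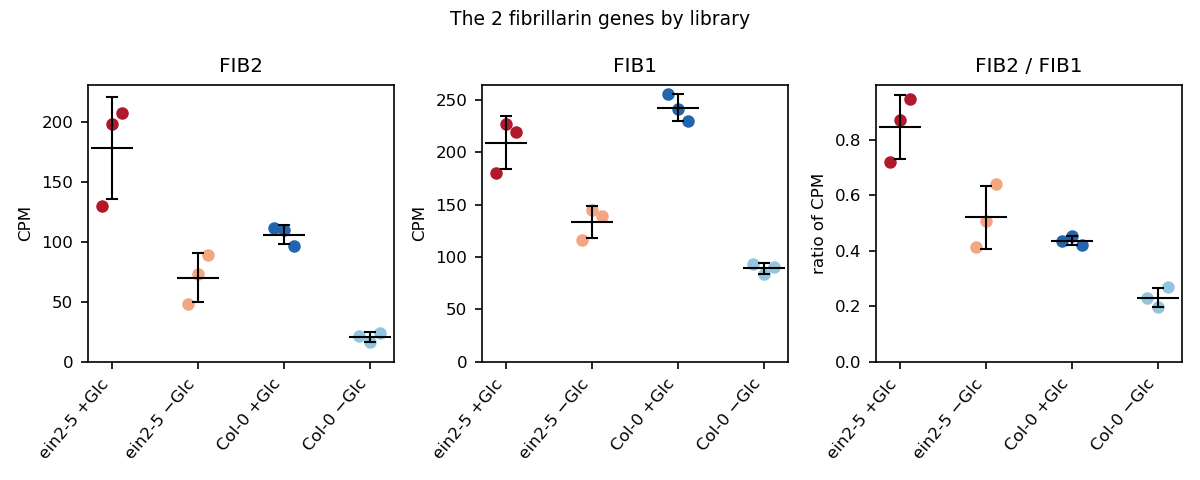
CPM of FIB2 and FIB1 and the ratio of the 2 in each library (points), with the mean and SD of each group of 3 (bars). The ratio averages 0.846 in ein2-5 +Glc, 0.521 in ein2-5 −Glc, 0.437 in Col-0 +Glc and 0.232 in Col-0 −Glc, and FIB1 by itself is highest in Col-0 +Glc.

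NOP56, a core protein of the particle, had 181, 216 and 202 CPM in ein2-5 +Glc, 86.8, 99.0 and 118 CPM in ein2-5 −Glc, 187, 178 and 191 CPM in Col-0 +Glc, and 35.0, 29.6 and 40.6 CPM in Col-0 −Glc. The +Glc groups overlapped, and ein2-5 −Glc stood between them and Col-0 −Glc. The rise was 0.98 ± 0.125 in ein2-5 (adjusted p = 6.38e-05, limma) and 2.38 ± 0.125 in Col-0 (adjusted p = 6.54e-09) on the log2 scale, and the difference of −1.40 ± 0.177 (adjusted p = 0.000296) was the largest of this class.

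AT5G27120 and AT3G05060, a pair of genes that RefSeq names NOP56-like and that were taken here as NOP58 genes, moved in the same direction. AT5G27120 had 95.5, 111 and 105 CPM in ein2-5 +Glc, 37.8, 43.3 and 54.6 CPM in ein2-5 −Glc, 99.7, 93.8 and 95 CPM in Col-0 +Glc, and 20.6, 16.3 and 20.2 CPM in Col-0 −Glc. AT3G05060 had 101, 109 and 102 CPM in ein2-5 +Glc, 44.0, 49.5 and 61.8 CPM in ein2-5 −Glc, 113, 103 and 103 CPM in Col-0 +Glc, and 26.3, 23.9 and 28.0 CPM in Col-0 −Glc. For both genes the +Glc groups overlapped, and the −Glc groups did not. Their log2 responses were 1.20 and 1.00 in ein2-5, and 2.29 and 1.99 in Col-0. The ratio of AT5G27120 to AT3G05060 averaged 1.00 ± 0.0474 in ein2-5 +Glc and 0.873 ± 0.0125 in ein2-5 −Glc (SD, n = 3 each). In Col-0 +Glc it was 0.905 ± 0.0189 and in Col-0 −Glc 0.728 ± 0.0512. These ratios did not overlap between the genotypes in either condition, nor between +Glc and −Glc in either genotype. They were not tested. The coding sequences were 82.48% identical, so reads that fit both may have been split between them.

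The 4 members of the box H/ACA particle, which guides pseudouridylation, rose in both genotypes as well, against 26.5% of all genes in ein2-5 and 40.6% in Col-0. Their median log2 responses were 0.81 in ein2-5 and 1.58 in Col-0. NAP57, the pseudouridine synthase, had 168, 196 and 179 CPM in ein2-5 +Glc, 80.7, 94.5 and 118 CPM in ein2-5 −Glc, 204, 168 and 187 CPM in Col-0 +Glc, and 50.6, 38.9 and 46.0 CPM in Col-0 −Glc. The +Glc groups overlapped, and ein2-5 −Glc lay between them and Col-0 −Glc. NAP57 rose by 0.90 ± 0.134 in ein2-5 (adjusted p = 0.000202, limma) and by 2.02 ± 0.134 in Col-0 (adjusted p = 4.39e-08), and its difference of responses, −1.13 ± 0.190 (adjusted p = 0.00159), was the largest of the class.

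The other 3 responded less. NOP10 had 46.9, 54.9 and 60.4 CPM in ein2-5 +Glc, 24.6, 33.9 and 35.4 CPM in ein2-5 −Glc, 41.4, 39.5 and 40.6 CPM in Col-0 +Glc, and 15.3, 12.9 and 15.9 CPM in Col-0 −Glc. The ein2-5 +Glc libraries all lay above the Col-0 +Glc libraries, with library 1 the lowest of the 3. AT3G03920, a Gar1/Naf1 family subunit, had 88.3, 123 and 127 CPM in ein2-5 +Glc, against 91.5, 79.1 and 90.8 CPM in Col-0 +Glc, and library 1 overlapped the Col-0 range. Its log2 response was 0.63 ± 0.147 in ein2-5 and 1.06 ± 0.147 in Col-0, and the difference of −0.43 ± 0.208 did not pass (adjusted p = 0.173, limma). AT5G08180, of the ribosomal protein L7Ae/L30e family, rose by 0.84 ± 0.113 in ein2-5 and by 1.75 ± 0.113 in Col-0.

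All 11 small-subunit factors rose in both genotypes, against 26.5% of all genes in ein2-5 and 40.6% in Col-0. All 11 were also higher in ein2-5 without glucose and had a smaller response in ein2-5, against 35.3% and 13.3% of all genes. Median log2 responses were 0.85 in ein2-5 and 1.78 in Col-0. Their summed level was 655, 749.9 and 703 CPM in ein2-5 +Glc, 337, 354 and 455 CPM in ein2-5 −Glc, 878, 801 and 762 CPM in Col-0 +Glc, and 249.8, 222 and 231 CPM in Col-0 −Glc, and no 2 of these groups overlapped.

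RRP5, a long RNA-binding factor that in yeast serves the assembly of both subunits, had 188, 228 and 223 CPM in ein2-5 +Glc, 83.1, 95 and 144 CPM in ein2-5 −Glc, 236, 229 and 228 CPM in Col-0 +Glc, and 60, 47.2 and 56.9 CPM in Col-0 −Glc. SWA1, a WD40 protein of the processome needed for female gametophyte development, had 47.7, 66.7 and 51.5 CPM in ein2-5 +Glc, 18.7, 25.6 and 26.5 CPM in ein2-5 −Glc, 70.7, 60.9 and 58.9 CPM in Col-0 +Glc, and 13.5, 12.0 and 10.5 CPM in Col-0 −Glc. For SWA1 the +Glc groups overlapped through ein2-5 +Glc 2, and for RRP5 they met at about 228 CPM. The −Glc groups were separate for both. Log2 responses were 1.02 ± 0.163 in ein2-5 and 2.06 ± 0.163 in Col-0 for RRP5, and 1.20 ± 0.150 in ein2-5 and 2.31 ± 0.150 in Col-0 for SWA1. SWA1 had the largest difference of responses of the class (−1.12 ± 0.213, adjusted p = 0.00325, limma).

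Other processome proteins followed. TOZ, a WD40 protein, rose by 0.66 in ein2-5 and 1.55 in Col-0, IMP4 by 0.62 and 1.41, and the U3 snoRNP protein AT5G66540 by 0.95 and 1.79, each value on the log2 scale. EMB2777, of the Sas10/Utp family, rose by 0.85 in ein2-5 and 1.78 in Col-0, and NOF1 by 0.61 and 1.12, the smallest response in Col-0 among the 11. RID2, a methyltransferase-like protein required for root initiation, rose by 1.14 in ein2-5 and 2.03 in Col-0. ENP1, of the bystin family, rose by 0.94 and 2.04, RRP7 by 0.77 and 1.5, and the Pumilio RNA-binding protein PUM23 by 0.56 and 1.24.

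With glucose, PUM23, ENP1 and EMB2777 were lower in ein2-5 than in Col-0. PUM23 had 53.4, 56.4 and 52.6 CPM in ein2-5 +Glc, against 78.2, 70.0 and 66.1 CPM in Col-0 +Glc. ENP1 had 70.7, 66.4 and 63.6 CPM in ein2-5 +Glc, against 87.6, 84.1 and 76.9 CPM in Col-0 +Glc. The groups did not overlap for either gene, nor for EMB2777 at 60.8, 64.9 and 65.0 CPM in ein2-5 +Glc, against 90.8, 76.2 and 70.1 CPM in Col-0 +Glc.

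The 13 PeBoW and large-subunit factors rose in both genotypes, by a median of 0.80 in ein2-5 and 1.79 in Col-0 on the log2 scale. Of all genes, 26.5% rose in ein2-5 and 40.6% in Col-0. All 13 passed as higher in ein2-5 without glucose and as having the smaller response in ein2-5, against 35.3% and 13.3% of all genes. OLI2 is a homologue of the yeast ribosomal RNA methyltransferase NOP2. On the log2(CPM + 1) scale it had the largest response in Col-0 and the largest difference of responses among the 45. It had 98.6, 111 and 93.2 CPM in ein2-5 +Glc, 38.9, 40.4 and 50.7 CPM in ein2-5 −Glc, 152, 139 and 143 CPM in Col-0 +Glc, and 22.1, 19.2 and 18.7 CPM in Col-0 −Glc. No 2 groups overlapped. OLI2 rose by 1.21 ± 0.108 in ein2-5 (adjusted p = 3.73e-06, limma) and by 2.79 ± 0.108 in Col-0 (adjusted p = 5.18e-10), with a difference of −1.59 ± 0.152 (adjusted p = 5.36e-05).

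PUM24, a second Pumilio protein of the nucleolus, was next in the size of the difference, at −1.41 ± 0.196 on the log2 scale (adjusted p = 0.00053, limma). It had 60.3, 58.2 and 50.8 CPM in ein2-5 +Glc, 25.9, 26.4 and 34.3 CPM in ein2-5 −Glc, 96.1, 81.6 and 72.9 CPM in Col-0 +Glc, and 18.1, 15.1 and 13.2 CPM in Col-0 −Glc, again with no overlap. Its promoter, shown above, held neither motif, whereas that of OLI2 held 3 site II matches and no telo-box.

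EBP1, a growth regulator related to the mammalian ErbB3-binding protein, was the highest of the class per kilobase of coding sequence in each group and responded least. It had 211, 213 and 196 CPM in ein2-5 +Glc, 139, 144 and 160.1 CPM in ein2-5 −Glc, 221, 192 and 195 CPM in Col-0 +Glc, and 95.3, 87.8 and 89.7 CPM in Col-0 −Glc. The +Glc groups overlapped; the −Glc groups did not. EBP1 rose by 0.49 ± 0.0847 in ein2-5 (adjusted p = 0.000584, limma) and by 1.15 ± 0.0847 in Col-0 (adjusted p = 1.10e-07).

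AT3G15460 and AT1G52930, a pair of Brix domain proteins of ribosomal RNA processing, differed in response. AT3G15460 had 17.7, 18.4 and 18.2 CPM in ein2-5 +Glc, 6.10, 7.33 and 6.99 CPM in ein2-5 −Glc, 13.4, 13.1 and 12.1 CPM in Col-0 +Glc, and 2.36, 0.974 and 1.55 CPM in Col-0 −Glc. AT1G52930 had 40.3, 47.5 and 47.0 CPM in ein2-5 +Glc, 23.0, 29.9 and 32.1 CPM in ein2-5 −Glc, 44.9, 41.3 and 42.4 CPM in Col-0 +Glc, and 13.6, 10.0 and 11.6 CPM in Col-0 −Glc. For AT3G15460 the 4 groups were separate, with ein2-5 +Glc highest, and for AT1G52930 the +Glc groups overlapped. Log2 responses were 1.29 in ein2-5 and 2.43 in Col-0 for AT3G15460, and 0.66 in ein2-5 and 1.79 in Col-0 for AT1G52930. The ratio of AT3G15460 to AT1G52930 averaged 0.405 ± 0.0303 in ein2-5 +Glc, 0.243 ± 0.0239 in ein2-5 −Glc, 0.300 ± 0.0163 in Col-0 +Glc and 0.135 ± 0.0378 in Col-0 −Glc (SD, n = 3 each). Their coding sequences were 84.39% identical.

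The PeBoW proteins had middle-sized responses. PES, the pescadillo homologue rose by 0.63 ± 0.0897 in ein2-5 and by 1.44 ± 0.0897 in Col-0. The WD40 repeat proteins AT2G40360 and AT5G15550, listed with this complex, rose by 0.77 and 0.73 in ein2-5 and by 1.53 and 1.65 in Col-0. RBL and AT2G18220, both of the Noc2 family that carries large-subunit precursors in yeast, rose by 1.07 and 0.94 in ein2-5 and by 2.20 and 1.79 in Col-0. EDA25, a CCAAT-binding factor family protein, rose by 0.89 in ein2-5 and 2.02 in Col-0. The RRS1 family protein AT2G37990 rose by 0.80 and 1.40, and the Nop53 family protein AT2G40430 by 0.57 and 1.28.

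**Figure D5:**
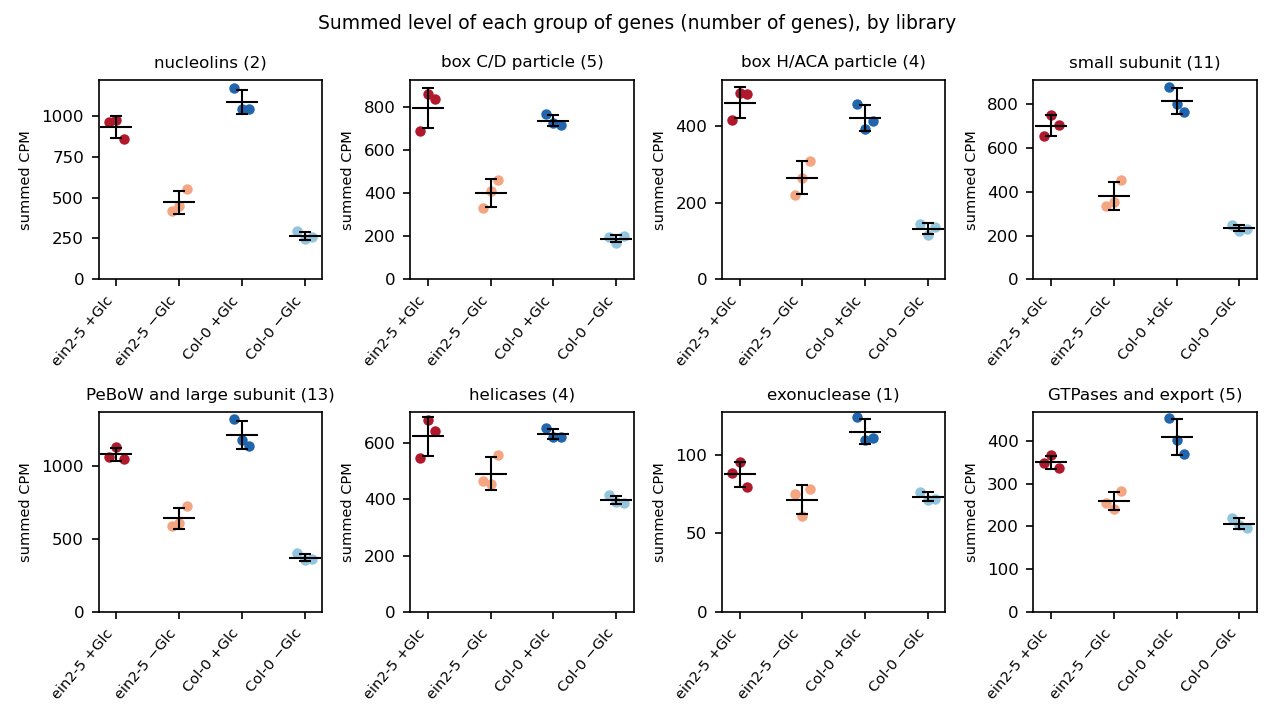
Summed CPM of the members of each role in each library (points), with the mean and SD of each group of 3 (bars); the number of genes of a role stands beside its name. The Col-0 −Glc libraries are the lowest in every panel but that of the exonuclease, and the ein2-5 −Glc libraries are above them in 7 of 8 panels.

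The helicases responded unevenly. PRH75, a DEAD-box RNA helicase of the nucleolus, had 421, 555 and 516 CPM in ein2-5 +Glc, 385, 374 and 458 CPM in ein2-5 −Glc, 509, 483 and 498 CPM in Col-0 +Glc, and 344, 323 and 318 CPM in Col-0 −Glc. The ein2-5 groups overlapped through ein2-5 −Glc 3, and the Col-0 groups did not. PRH75 rose in Col-0 by 0.60 ± 0.114 on the log2 scale (adjusted p = 0.000517, limma); in ein2-5 the value was 0.29 ± 0.114 and did not pass (adjusted p = 0.0559, 95% interval 0.04 to 0.54).

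RH36, a DEAD-box helicase needed for gametophyte development, had 21.2, 22.4 and 17.3 CPM in ein2-5 +Glc, 10.6, 11.3 and 13.1 CPM in ein2-5 −Glc, 27.4, 23.7 and 19.7 CPM in Col-0 +Glc, and 9.28, 7.39 and 7.85 CPM in Col-0 −Glc. Its response of 0.75 ± 0.138 in ein2-5 and 1.42 ± 0.138 in Col-0 was the largest of the 4, and its +Glc groups overlapped. AT5G60990, a DEAD-box helicase, rose by 0.71 in ein2-5 and 1.30 in Col-0. MTR4, the helicase of the nuclear exosome, rose by 0.34 ± 0.0945 in ein2-5 (adjusted p = 0.0114, limma) and by 0.56 ± 0.0945 in Col-0 (adjusted p = 0.000191). The differences of responses passed for RH36 (−0.67) and AT5G60990 (−0.59), and not for PRH75 (−0.31, 95% interval −0.65 to 0.04) or MTR4 (−0.22, −0.51 to 0.07).

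XRN2, a nuclear 5′ to 3′ exoribonuclease that trims ribosomal RNA precursors, had 88.3, 95.6 and 79.7 CPM in ein2-5 +Glc, 75.0, 60.9 and 78.5 CPM in ein2-5 −Glc, 124, 109.9 and 111 CPM in Col-0 +Glc, and 76.6, 71.6 and 72.2 CPM in Col-0 −Glc. Here the −Glc groups overlapped, and ein2-5 +Glc lay between them and Col-0 +Glc. XRN2 rose by 0.30 ± 0.102 in ein2-5 (adjusted p = 0.0309, limma) and by 0.64 ± 0.102 in Col-0 (adjusted p = 0.000118), and with glucose it was lower in ein2-5 by the test (−0.38 ± 0.102, adjusted p = 0.00782). The rise in ein2-5 was lost without ein2-5 −Glc 2, ein2-5 +Glc 1 or ein2-5 +Glc 2 in turn. The difference of responses was −0.34 (adjusted p = 0.123, 95% interval −0.65 to −0.03). With TMM scaling XRN2 passed as lower in ein2-5 without glucose too (−0.22, adjusted p = 0.0406, limma). XRN3, the related exonuclease outside the list, fell in Col-0 with glucose by 0.29 ± 0.0844 (adjusted p = 0.00884).

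The GTPases and export factors spanned the widest range relative to their size. NSN1, a nucleostemin-like GTPase, and LSG1-2, a GTPase that acts late on the large subunit, responded like the assembly factors, and NUG2 and the REIL genes did not. LSG1-2 had 28.8, 31.7 and 25.8 CPM in ein2-5 +Glc, 17.0, 17.3 and 20.4 CPM in ein2-5 −Glc, 40.8, 37.7 and 34.1 CPM in Col-0 +Glc, and 11.4, 11.9 and 11.1 CPM in Col-0 −Glc, with no overlap between groups. It rose by 0.63 ± 0.103 in ein2-5 (adjusted p = 0.000388, limma) and by 1.63 ± 0.103 in Col-0 (adjusted p = 3.02e-08), and its difference of responses, −1 ± 0.146 (adjusted p = 0.000707), was the largest of the class. NSN1 rose by 0.87 ± 0.115 in ein2-5 and by 1.75 ± 0.115 in Col-0.

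NUG2, a GTPase of large-subunit export, had 105, 103 and 99.3 CPM in ein2-5 +Glc, 88.4, 77.2 and 89.9 CPM in ein2-5 −Glc, 140.2, 127 and 103 CPM in Col-0 +Glc, and 82.3, 81.4 and 76.4 CPM in Col-0 −Glc. In both genotypes the +Glc libraries lay above the −Glc libraries. NUG2 rose in Col-0 by 0.61 ± 0.104 (adjusted p = 0.000212, limma); in ein2-5 the value was 0.27 ± 0.104 (adjusted p = 0.0535, 95% interval 0.04 to 0.49), and it passed with the replicate number as a block (0.27, adjusted p = 0.0381, limma). The gene had the most site II matches among the promoters printed above, 5, beside a telo-box.

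REIL1 and REIL2, zinc finger proteins of the REI1 family that matures the cytoplasmic large subunit, parted. REIL1 had 31.1, 29.2 and 27.8 CPM in ein2-5 +Glc, 40.1, 31.8 and 32.2 CPM in ein2-5 −Glc, 36.7, 35.0 and 31.7 CPM in Col-0 +Glc, and 34.0, 31.7 and 30.1 CPM in Col-0 −Glc. It was the one member that did not pass in Col-0, at 0.11 ± 0.1 (adjusted p = 0.38, limma, 95% interval −0.11 to 0.32), or −0.10 with TMM scaling, and in ein2-5 the +Glc libraries lay below the −Glc libraries, at −0.23 ± 0.1 (adjusted p = 0.0848, 95% interval −0.44 to −0.01). With the replicate number as a block REIL1 passed as lower with glucose in ein2-5 (−0.23, adjusted p = 0.0314, limma). REIL2 had 66.7, 67.0 and 60.3 CPM in ein2-5 +Glc, 48.1, 52.0 and 58.8 CPM in ein2-5 −Glc, 86.6, 78.5 and 75.4 CPM in Col-0 +Glc, and 50.8, 42.2 and 38.8 CPM in Col-0 −Glc. With TMM scaling REIL1 passed as lower with glucose in ein2-5 (−0.29, adjusted p = 0.0168). REIL2 rose by 0.29 ± 0.107 in ein2-5 (adjusted p = 0.045, limma) and by 0.86 ± 0.107 in Col-0 (adjusted p = 1.24e-05); the call in ein2-5 was lost with TMM scaling (0.23, adjusted p = 0.0671) and on leaving out 1 library in several cases, among them ein2-5 −Glc 1, ein2-5 −Glc 2, ein2-5 +Glc 1 and ein2-5 +Glc 2. The ratio of REIL2 to REIL1 averaged 2.20 ± 0.0804 in ein2-5 +Glc, 1.55 ± 0.321 in ein2-5 −Glc, 2.33 ± 0.0763 in Col-0 +Glc and 1.37 ± 0.108 in Col-0 −Glc (SD, n = 3 each).

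Levels per kilobase of coding sequence spread widely among the members. In Col-0 +Glc, below NUC-L1, FIB1 had 262 CPM per kb, PRH75 246, AT5G08180 227 and NOP10 208. At the low end NUC-L2 had 1.87 CPM per kb, AT3G15460 13.6 and RH36 16. The 4 groups had NUC-L2 as the lowest gene in common.

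The response was set beside the promoter motifs as a description. Over all 18920 promoters, the median log2 response in Col-0 was 0.57 for those with both motifs, 0.38 with a telo-box alone, 0.20 with a site II element alone and 0.16 with neither. Among the members it was 2.01 for the 16 with both, 1.60 for the 6 with a telo-box alone, 1.35 for the 16 with a site II element alone and 1.63 for the 7 with neither. In ein2-5 the members' medians were 0.92 with both motifs, 0.83 with a telo-box alone, 0.63 with a site II element alone and 0.77 with neither. The members with neither motif thus had medians inside the range of the others in both genotypes. No test was run on these medians.

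The rest of the pathway was described with a second list of 27 genes, all measured: RNA polymerase I subunits, further processing factors and exosome subunits. With glucose, 21 of 27 rose in ein2-5, against 26.5% of all genes, and 24 rose in Col-0, against 40.6%; in Col-0, 1 fell, against 19.7%. Without glucose 17 were higher in ein2-5 and 1 was lower, against 35.3% and 16.0% of all genes. With glucose 1 was higher and 7 were lower, against 26.1% and 20.9%. The response was smaller in ein2-5 for 16 and larger for 0, against 13.3% and 5.49%. Median log2 responses were 0.58 in ein2-5 and 1.05 in Col-0, below those of the 45 members.

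NRPA1, the largest subunit of RNA polymerase I, averaged 117 ± 10.4 CPM in ein2-5 +Glc, 59.3 ± 14.7 CPM in ein2-5 −Glc, 174 ± 7.93 CPM in Col-0 +Glc and 35.7 ± 3.53 CPM in Col-0 −Glc (SD, n = 3 each). It rose by 1.00 ± 0.141 in ein2-5 and by 2.26 ± 0.141 in Col-0, with a difference of −1.27 ± 0.199 (adjusted p = 0.00105, limma), and with glucose it was lower in ein2-5 by the test (−0.57, adjusted p = 0.00508). The nucleolar histone deacetylase HDT1 averaged 101.7 ± 10.6 CPM in ein2-5 +Glc, 54.9 ± 13.5 CPM in ein2-5 −Glc, 73.1 ± 4.31 CPM in Col-0 +Glc and 16.1 ± 2.61 CPM in Col-0 −Glc. It was the 1 gene of the 27 that was higher in ein2-5 with glucose (0.47, adjusted p = 0.0272). Of the exosome subunits RRP4 responded most, by 0.84 in ein2-5 and 2.00 in Col-0, and RRP44A least in Col-0, by 0.24 in ein2-5 and 0.23 in Col-0.

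A further set was drawn from RefSeq product names that mention ribosomal RNA processing, ribosome biogenesis, the nucleolus or U3, without the genes of the first 2 lists. Of its 41 measured genes, 22 rose with glucose in ein2-5 and 6 fell, against 26.5% and 16.4% of all genes, and 28 rose in Col-0 and 4 fell, against 40.6% and 19.7%. Median log2 responses were 0.36 in ein2-5 and 0.80 in Col-0. Without glucose 25 were higher in ein2-5 and 2 were lower, against 35.3% and 16.0% of all genes. The response was smaller in ein2-5 for 16 and larger for 1, against 13.3% and 5.49%.

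Markers of other parts and states of the seedling moved with these comparisons. The 9 genes of dividing cells, such as PCNA1, MCM2 and the cyclin CYCB1;1, summed to between 269 and 311 CPM in ein2-5 +Glc, 166 and 199 CPM in ein2-5 −Glc, 164 and 184 CPM in Col-0 +Glc, and 55.6 and 75.9 CPM in Col-0 −Glc. All 9 were higher in ein2-5 in both conditions, against 35.3% of all genes without glucose and 26.1% with it. With glucose in Col-0, 7 rose and 1 fell (KNOLLE, the cytokinesis syntaxin), against 40.6% and 19.7%. The response was smaller in ein2-5 for 6, against 13.3%. Of the 45 members, 41 were higher in ein2-5 and 0 lower without glucose, and 3 were higher and 9 lower with it. The part of the dividing-cell genes in the results was not tested.

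The 10 seed genes were higher in ein2-5 in both conditions, against 35.3% of all genes without glucose and 26.1% with it. No glucose response passed for any of them, but the intervals were too wide to show that there was none. The widest 95% interval on the log2 scale was that of CRC, −2.73 to 2.69 in ein2-5 and −4.77 to 0.65 in Col-0. The narrowest was that of SESA4, −1.04 to 1.45 in ein2-5 and −1.18 to 1.31 in Col-0. SESA2 was at 0 in all 3 Col-0 +Glc libraries, and CRB and SESA1 were at 0 in 4 Col-0 libraries each, where a count of 0 allows up to 0.172 to 0.217 CPM for counting error. The 4 root genes summed to between 69.2 and 117 CPM in ein2-5 +Glc, and 49.6 and 68.2 CPM in ein2-5 −Glc. In Col-0 the sums were between 40.7 and 48.6 CPM with glucose, and 33.6 and 34.5 CPM without. All 4 root genes were higher in ein2-5 in both conditions, against 35.3% of all genes without glucose and 26.1% with it. The 4 genes of green tissue, none at 0, summed to between 20689 and 26163 CPM in ein2-5 +Glc, 23726 and 33112 CPM in ein2-5 −Glc, 32834 and 34326 CPM in Col-0 +Glc, and 37720 and 41066 CPM in Col-0 −Glc. By the test 2 of the 4 green genes were lower in ein2-5 without glucose and 1 with glucose, against 16.0% and 20.9% of all genes. None of the 4 was called higher. The part of the root and green genes in the results was not tested. A fit without ein2-5 +Glc 2, ein2-5 +Glc 3 and Col-0 −Glc 1 keeps 1 ein2-5 +Glc library. Its counts of calls are therefore not given. The ein2-5 +Glc library kept, at 140 CPM of the seed genes, stands against ein2-5 −Glc libraries at 758 to 1310 CPM. That fit does not even out the seed transcripts between the groups, and their part in the results was not tested.

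The scaling of the libraries bears on these counts. TMM factors, which equalise the typical gene between libraries, were 0.8875 to 0.9216 for Col-0 −Glc and 0.9768 to 1.0753 for the remaining libraries. TMM moved the median log2 change of all genes in Col-0 with glucose from 0.19 to 0.01, that of ein2-5 against Col-0 without glucose from 0.15 to 0, and that of the difference of responses from −0.11 to 0.02. Without TMM, 7925 genes rose and 3850 fell with glucose in Col-0, and with it 5969 rose and 5842 fell. Without glucose, 6887 genes were higher in ein2-5 and 3121 lower, and with TMM 5135 were higher and 5330 lower. The response was larger in ein2-5 for 1072 genes and smaller for 2606, and with TMM larger for 1873 and smaller for 1794. Of the members, 44 still rose in Col-0 with TMM, 41 rose in ein2-5, 38 were higher in ein2-5 without glucose, and 34 had the smaller response in ein2-5. For the rise in ein2-5 the count over all genes with TMM is not given here. REIL2 was the member that no longer rose in ein2-5, and PUM23, PRH75 and REIL2 were those no longer higher in ein2-5 without glucose. FIB2, NOP10, AT2G37990 and AT5G60990 lost the call of a smaller response in ein2-5, with differences of −0.83, −0.49, −0.46 and −0.44.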

How the data were processed

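Expression was measured by mRNA sequencing in 12 libraries. The deposited values are CPM that the authors made from reads aligned with TopHat and counted with HTSeq against TAIR10, per the submitters' processing notes. Versions, strand setting and the treatment of reads that match several genes are not given in the sources used here. Every CPM value was a whole multiple of 1 read to within 0.01 reads, so whole reads were recovered; a library held 11470134 to 17461274 of them, and 3 reads correspond to 0.172 to 0.262 CPM. Intervals and floors from reads cover counting error only.

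The 19522 genes of the table were fitted together with limma 3.58.1 (trend) in R 4.3.3 on log2(CPM + 1), with a pseudocount of 1, no filter, 4 groups, all 12 libraries and 8 residual degrees of freedom. Fold changes are therefore on the log2(CPM + 1) scale, which makes the change of low genes smaller. P-values were adjusted by Benjamini and Hochberg's procedure across all genes within each of 5 comparisons, with a threshold of 0.05. edgeR 4.0.16 with TMM on the recovered reads was an alternative, beside other pseudocounts, TMM scaling, a filter, fits of 2 groups, a replicate block and libraries left out. The ratio of the fibrillarins was tested by exact permutation. The fits were tested on simulated data with known changes. Summaries used Python 3.11.15, numpy 2.4.6, pandas 2.3.3, scipy 1.17.1 and matplotlib 3.10.9.

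Of the genes, 19352 were matched by locus code to RefSeq TAIR10.1 and 170 were not. Promoters, gene positions and coding sequences were read from that assembly. The members, the lists and the motifs were chosen with earlier results of these data known. Values in every library are given, per role, for the member with the highest mean CPM, the member with the largest difference between the responses, members that did not pass in either genotype, and pairs of related copies. PUM23, PUM24, ENP1, EMB2777, NOP10 and AT3G03920 are given by library beyond this rule and were chosen after their values were seen. Among the groups compared, same-numbered libraries deviated together in every pair only between ein2-5 +Glc and ein2-5 −Glc (correlations of 0.151 to 0.611); no label gives a source for this, and the fit has no replicate block.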

Additional observations from a re-analysis of the deposited data

Results flagged for a closer look

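The response to glucose differed between the genotypes for 38 of the 45 members, each tested as the response in ein2-5 minus that in Col-0 on the log2(CPM + 1) scale, and each smaller in ein2-5 (limma, adjusted p under the threshold). Among the nucleolins it was −1.04 for NUC-L1. In the box C/D particle it was −0.79 for FIB1, −0.97 for FIB2, −1.40 for NOP56, −1.09 for AT5G27120 and −0.99 for AT3G05060. In the box H/ACA particle it was −1.13 for NAP57, −0.91 for AT5G08180 and −0.63 for NOP10. Among small-subunit factors it was −0.89 for TOZ, −1.12 for SWA1, −0.79 for IMP4, −0.94 for EMB2777 and −0.84 for AT5G66540. Others of this role had −1.05 for RRP5, −0.73 for RRP7, −0.51 for NOF1, −1.10 for ENP1, −0.88 for RID2 and −0.67 for PUM23. Among PeBoW and large-subunit factors it was −0.80 for PES, −0.76 for AT2G40360, −0.92 for AT5G15550, −1.14 for AT3G15460, −1.13 for AT1G52930 and −1.41 for PUM24. Others of this role had −1.13 for EDA25, −1.13 for RBL, −0.85 for AT2G18220, −0.60 for AT2G37990, −1.59 for OLI2, −0.71 for AT2G40430 and −0.66 for EBP1. Among helicases it was −0.67 for RH36 and −0.59 for AT5G60990. Among GTPases and export factors it was −0.89 for NSN1, −1 for LSG1-2 and −0.57 for REIL2. With 3 libraries per group no search for outlying libraries was made.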

How the results depend on the processing

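Out of 45 members, 44 rose with glucose in Col-0 under every alternative that fitted all of them. NUC-L2 could not be fitted with a filter of at least 5 CPM, which left 43. The counts for a rise in ein2-5, a higher level in ein2-5 without glucose and a smaller response in ein2-5 were 41, 38 and 34 with TMM scaling, 40, 38 and 34 with edgeR, and 43, 41 and 40 with the replicate number as a block. Leaving out 1 library at a time gave 39 to 43, 37 to 41 and 32 to 39. Counts over all genes are not given here for edgeR, the block or the libraries left out. Same-numbered libraries correlated in their deviations from −0.302 to 0.611, over 0.1 in 12 of 18 pairs. Between ein2-5 +Glc and ein2-5 −Glc all 3 pairs were over 0.1 (0.611, 0.151 and 0.453), and there the block added a rise of NUG2 and a fall of REIL1. In the other comparisons of the 5 at least 1 pair was at 0.1 or below. The difference of responses among them also contains the ein2-5 pairs. Whether the numbers mark a shared source cannot be told from these correlations. In these comparisons the block added a smaller response in ein2-5 for NUC-L2 (−0.85, adjusted p = 0.0101, limma) and REIL1 (−0.33, adjusted p = 0.0481). It gave 4 higher and 11 lower members in ein2-5 with glucose. That comparison was the least steady: leaving out 1 library gave 0 to 4 higher and 6 to 10 lower members, and leaving out the 3 libraries with more seed transcripts gave 0 higher and 3 lower. That last fit keeps 1 ein2-5 +Glc library, assumed to vary like the other groups, so its lost calls say nothing of the seed transcripts.

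Values that changed sign were all near 0. With TMM scaling and with edgeR, REIL1 stood at −0.0993 and −0.101 for the response in Col-0. Without glucose, ein2-5 against Col-0, the values were −0.0788 and −0.0752 for MTR4, −0.0845 and −0.0847 for NUG2, and −0.0568 and −0.0518 for REIL1. Leaving out 1 library gave −0.0206 to 0.171 for MTR4 and −0.118 to 0.0623 for XRN2 in that comparison. Counting only the 250 bases before the gene start, 8 members held a telo-box, in place of 22 in the whole window. Low depth limits NUC-L2, which had 0.286 CPM in its lowest library, near the 3-read floor.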
